A study of Mus musculus with 12 samples.

Results

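The *Dlx* and *Msx* homeobox genes were followed in limb mesenchyme that had been made to express Creb5. The 8 genes, *Dlx1* to *Dlx6*, *Msx1* and *Msx2*, were chosen by their symbols, matched to the Ensembl gene IDs of the deposited E14.5 table, and are 8 of the 54532 genes it lists. All 8 were found, and 7 of them passed the filter on low values and were tested. *Dlx1* did not pass and is given by its values. The study compared limb mesenchymal cells of mouse embryos at E14.5. The iCreb5 cells expressed an HA-tagged bovine form of Creb5, a basic leucine zipper transcription factor, together with GFP. The tdTomato cells made the red fluorescent protein tdTomato instead. Prrx1-Cre males, whose Cre recombinase acts in limb bud mesenchyme, had been mated to females with a Rosa26 LSL-bovine-Creb5-ires-GFP allele and an LSL-tdTomato allele, so the sorted cells of both groups had met Cre and no group without Cre was compared. Here LSL stands for a stop cassette that Cre removes. PolyA RNA of sorted cells gave 6 iCreb5 libraries, named 3a, 3b, 3c, 4a, 5 and 6, and 6 tdTomato libraries, named 3a, 3b, 3c, 4a, 5b and 6d. The first character of a name was taken as the litter. There were 3 libraries per group from litter 3 and 1 per group from each of litters 4, 5 and 6. Read in this way, the labels give 4 litters, whereas the design text gives 6. Effects of litter cannot be told apart from those of any batch that follows the litters. The sources used here do not say if 1 embryo or several went into a library, so the p-values refer to the spread among these libraries.

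Dlx and Msx proteins are transcription factors that bind DNA through a homeodomain, which is encoded by the homeobox. The *Dlx* genes lie in linked pairs that are transcribed towards each other and share regulatory elements. In limbs, *Dlx5* and *Dlx6* are known from the apical ectodermal ridge and from developing cartilage and bone, and loss of both genes in mice gives limb and skull defects. *Msx1* and *Msx2* are classical targets of BMP signalling in limb mesenchyme and are associated with cells that have not yet differentiated.

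The homeobox stretches of the 3 genes whose change passed the test are shown because reads are assigned to these genes by such sequence. The *Dlx5* stretch is the 180-base window of its coding sequence that best matched the coding sequences of the other 7 genes, and the stretches of *Dlx3* and *Dlx6* are their best matches to it. They come from GENCODE M21 transcripts (GRCm38), read 5′ to 3′, and cover most of the homeobox. The window was picked by identity alone, so its ends are not those of the homeobox. Capitals in *Dlx3* and *Dlx6* mark bases that differ from *Dlx5* at the same place.
Dlx5: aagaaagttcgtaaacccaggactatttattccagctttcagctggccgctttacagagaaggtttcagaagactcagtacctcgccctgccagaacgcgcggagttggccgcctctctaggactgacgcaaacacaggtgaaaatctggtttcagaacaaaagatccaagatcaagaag
Dlx3: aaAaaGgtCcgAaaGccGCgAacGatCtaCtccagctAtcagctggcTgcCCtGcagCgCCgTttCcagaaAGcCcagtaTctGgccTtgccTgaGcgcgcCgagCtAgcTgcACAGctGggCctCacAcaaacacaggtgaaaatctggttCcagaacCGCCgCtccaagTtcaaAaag
Dlx6: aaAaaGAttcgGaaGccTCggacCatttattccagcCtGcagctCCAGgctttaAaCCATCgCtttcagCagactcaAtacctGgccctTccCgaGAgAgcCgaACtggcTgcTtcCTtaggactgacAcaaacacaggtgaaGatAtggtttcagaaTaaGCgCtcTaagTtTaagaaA
*Dlx6* differed from *Dlx5* at 47 of the 180 bases, an identity of 73.9%. *Dlx3* differed at 49 bases, an identity of 72.8%. Over whole transcripts, the longest run of bases shared by *Dlx5* and *Dlx6* was 18, and for *Dlx3* and *Dlx5* it was 23. No run of 31 bases was shared within any of the 3 *Dlx* pairs or between *Msx1* and *Msx2*. Longer shared runs joined *Msx2* to *Dlx6* at 44 bases and *Msx2* to *Dlx1* at 35 bases.

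*Dlx3*, *Dlx5* and *Dlx6* fell in iCreb5 cells, and no *Dlx* or *Msx* gene rose. The 3 falls were 3 of the 7 tested members, beside 2.85% of the 16733 genes tested that were called lower. Of the tested genes, 3.87% were called higher and 6.72% were called in either direction. Scaling every library to one total gave 799 higher and 382 lower genes, against 648 and 477 on the deposited scale, and called the same 3 members. *Dlx3* and *Dlx5* had groups that did not overlap, beside 1.92% of tested genes that were lower without overlap and 4.75% without overlap in either direction. A gene was called when its adjusted p, from limma on log2(value + 1) with Benjamini-Hochberg adjustment over the 16733 genes, was under 0.05. Values are the authors' normalised read counts, and log2 changes are iCreb5 minus tdTomato with the standard error (SE). The median log2 change was -0.70 over the 7 tested members and 0.00 over all genes tested. *Dlx6* passed the filter on low values through its tdTomato libraries, so the count over the tested members is a description.

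**Figure D1:**
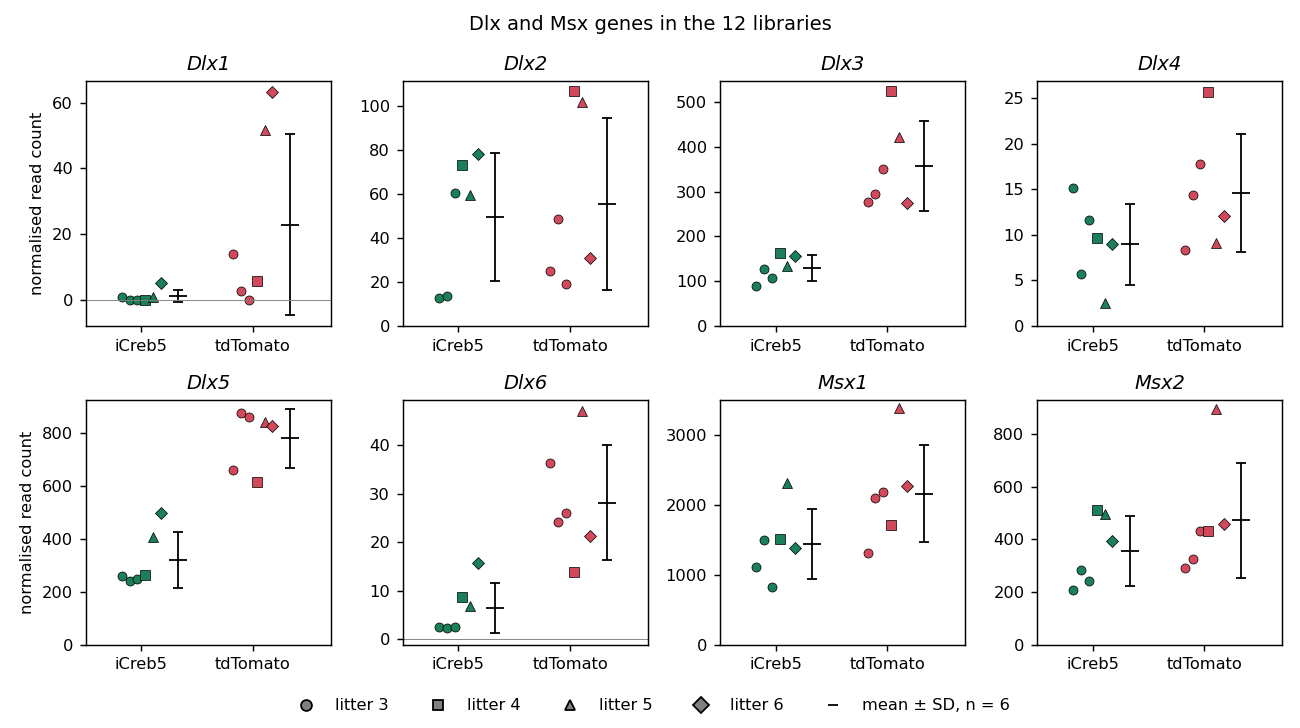
Normalised read count of each Dlx and Msx gene in the 6 iCreb5 and 6 tdTomato libraries, 1 point a library, with the litter as the point's shape and the mean ± SD (n = 6) beside the points. All iCreb5 points of Dlx3 and Dlx5 lie below all tdTomato points, whereas the groups overlap in the other 6 genes.

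*Dlx5* (ENSMUSG00000029755) lies on the minus strand at chr6:6877805-6882085 and *Dlx6* (ENSMUSG00000029754) on the plus strand at chr6:6863334-6868568, with 9236 bases between them (mm10, GENCODE M21). *Dlx5*, which acts in cartilage and bone formation, had normalised read counts of 260.5, 240.1, 249, 261, 406 and 495 in iCreb5 3a, 3b, 3c, 4a, 5 and 6, against 659, 873, 858, 614, 841 and 826 in tdTomato 3a, 3b, 3c, 4a, 5b and 6d. The highest iCreb5 libraries, 6 and 5, stayed below the lowest tdTomato library, 4a. The means were 318 ± 106 in iCreb5 and 779 ± 112 in tdTomato (SD, n = 6 each). *Dlx5* was 2.52-fold lower in iCreb5, a log2 change of -1.33 ± 0.19 (SE, 95% interval -1.73 to -0.93, limma adjusted p = 0.000289). An exact two-sided permutation test over all 924 ways to label the libraries gave p = 0.00216, the smallest it can give. That test ignores the litters. With labels exchanged only within litters, the exact permutation test gave p = 0.0125 over 160 ways, again the smallest possible. The log2 change of *Dlx5* was -1.66 in litter 3 alone (adjusted p = 0.00179), and litters 4 to 6 with litter as a block gave -1.01 (adjusted p = 0.0146). The difference between these sets was -0.65 and did not pass the test (interaction adjusted p = 0.830).

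*Dlx6*, the linked partner of *Dlx5* with overlapping roles, was weakly expressed. It had 2.53, 2.30, 2.53, 8.62, 6.79 and 15.6 in iCreb5 3a, 3b, 3c, 4a, 5 and 6, against 36.3, 24.2, 26, 13.8, 47.2 and 21.4 in tdTomato 3a, 3b, 3c, 4a, 5b and 6d. These values rest on 3, 2, 5, 8, 8 and 19 reads in iCreb5 and on 13, 49, 19, 15, 31 and 23 reads in tdTomato. The groups overlapped through iCreb5 6, which lay above tdTomato 4a. *Dlx6* averaged 6.40 ± 5.23 in iCreb5 and 28.1 ± 11.8 in tdTomato (SD, n = 6 each), 4.46-fold lower in iCreb5 (log2 change -2.16 ± 0.48 SE, 95% interval -3.18 to -1.13, limma adjusted p = 0.0111, exact two-sided permutation p = 0.00433). With labels exchanged only within litters, the exact permutation p was 0.0125. *Dlx6* passed the filter on low values through its tdTomato libraries, so its call and these p-values are a description. The fall was -3.09 within litter 3 (adjusted p = 0.0182). Within litters 4 to 6 it was -1.23 and did not pass (adjusted p = 0.360 with litter as a block), and without tdTomato 3a and 5b the log2 change was -1.84 (adjusted p = 0.0661). The difference of *Dlx6* between the litter sets was -1.87 (limma interaction, unadjusted p = 0.0396, adjusted p = 0.812).

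*Dlx5* was higher than *Dlx6* per kilobase of exon in 12 of 12 libraries. The log2 ratio of *Dlx6* to *Dlx5* was -5.65 ± 0.66 in iCreb5 and -4.83 ± 0.55 in tdTomato (SD, n = 6 each), a difference of -0.83 (exact two-sided permutation p = 0.0433, adjusted p = 0.130 over 3 pairs). The 2 genes were thus not shown to fall unequally. Within the iCreb5 group, *Dlx6* and *Dlx5* had Pearson's r = 0.81 over 6 libraries (exact permutation p = 0.0361, adjusted p = 0.108 over 6 relations). Spearman's rho was 0.89 (exact permutation p = 0.0333, adjusted p = 0.10). Without the 2 libraries farthest from the median of *Dlx6*, r was 0.997 over 4 libraries. That value leans on iCreb5 5, with *Dlx6* at 6.79 and *Dlx5* at 406. The others, iCreb5 3a, 3b and 3c, had at most 2.53 and 260.5. Within the tdTomato group r was 0.37 (exact permutation p = 0.447) and rho 0.31 (exact permutation p = 0.564). Without the 2 farthest libraries r was -0.87 over 4 libraries. None of the 6 pair correlations passed the adjustment.

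*Dlx6os1*, a noncoding RNA gene read from the minus strand across *Dlx6* (chr6:6820189-6871592), shares no exon base with *Dlx6*. *Dlx6os1* had 16.9, 24.1, 18.2, 28.0, 15.3 and 66.6 in iCreb5 3a, 3b, 3c, 4a, 5 and 6, against 92.1, 60.3, 116, 54.2, 42.6 and 28.8 in tdTomato 3a, 3b, 3c, 4a, 5b and 6d. The groups overlapped, with iCreb5 6 high and tdTomato 6d low for their groups. Its log2 change was -1.24 ± 0.40 (SE, limma adjusted p = 0.0812). The adjusted p of *Dlx6os1* was 0.0196 without iCreb5 6 and 0.0435 without tdTomato 6d, and DESeq2 gave 0.0482. The log2 change of *Dlx6os1* was -2.09 in litter 3 alone (adjusted p = 0.0163), -0.39 in litters 4 to 6 with litter as a block (adjusted p = 0.763), and -0.82 with litter 3 averaged and litter as a block (adjusted p = 0.417). The difference between the litter sets did not pass (limma interaction adjusted p = 0.802). *Dlx6os2* shares 104 exon bases with *Dlx6* on the other strand, 4.38% of the exon bases of *Dlx6*, and was at 0 in all 6 iCreb5 libraries and at most 2.97 in tdTomato. The sources used here do not say if counting used strand, and reads in that overlap cannot be assigned to 1 gene.

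The genes around *Dlx5* and *Dlx6* did not all move one way. Of 6 listed neighbours, *Tac1* rose, *Dync1i1*, *Asns* and *Slc25a13* fell, and *Sem1* and *Sdhaf3* did not pass. *Tac1*, which encodes the precursor of the neuropeptide substance P, lies on the *Dlx5* side of the pair, 672.793 kb from *Dlx5*. It had 1225, 1575, 1929, 2294, 2074 and 1857 in iCreb5 3a, 3b, 3c, 4a, 5 and 6, against 402, 525, 234, 520.0, 699.8 and 531 in tdTomato 3a, 3b, 3c, 4a, 5b and 6d. Every iCreb5 library lay above every tdTomato library. *Tac1* was 3.88-fold higher in iCreb5, a log2 change of 1.96 ± 0.22 (SE, limma adjusted p = 5.09e-05). The fall of *Dync1i1*, a dynein intermediate chain gene, was -0.60 ± 0.14 (SE, adjusted p = 0.0159), with means of 219.8 in iCreb5 and 334 in tdTomato. *Asns*, the asparagine synthetase gene, fell by 0.53 on the log2 scale (adjusted p = 0.0237), a call lost without iCreb5 3a, 3b or 3c or tdTomato 4a. *Slc25a13*, a mitochondrial carrier gene, fell by 0.49 (adjusted p = 0.0322). Its call was lost without iCreb5 3c, 5 or 6 or without tdTomato 3b, 3c, 4a or 6d, so the count of 3 neighbours lower became 1 without iCreb5 3c or tdTomato 4a. Within 1 Mb on each side, a window set after values had been seen, 9 other genes were tested, 1 was higher and 3 lower, and their median log2 change was -0.46. The same window at *Dlx1* and *Dlx2* held 16 other genes, with 0 called and a median of -0.04. At *Dlx3* and *Dlx4* it held 40, with 1 higher and 2 lower and a median of -0.07. The 2 lower were the cartilage matrix gene *Chad* (log2 change -2.09 ± 0.21 SE, adjusted p = 1.7e-05) and the neurotrophin receptor gene *Ngfr* (-1.30 ± 0.21 SE, adjusted p = 0.000873). At *Msx1* it held 15, with 0 higher and 1 lower, and at *Msx2* 10, with 1 higher and 1 lower.

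**Figure D2:**
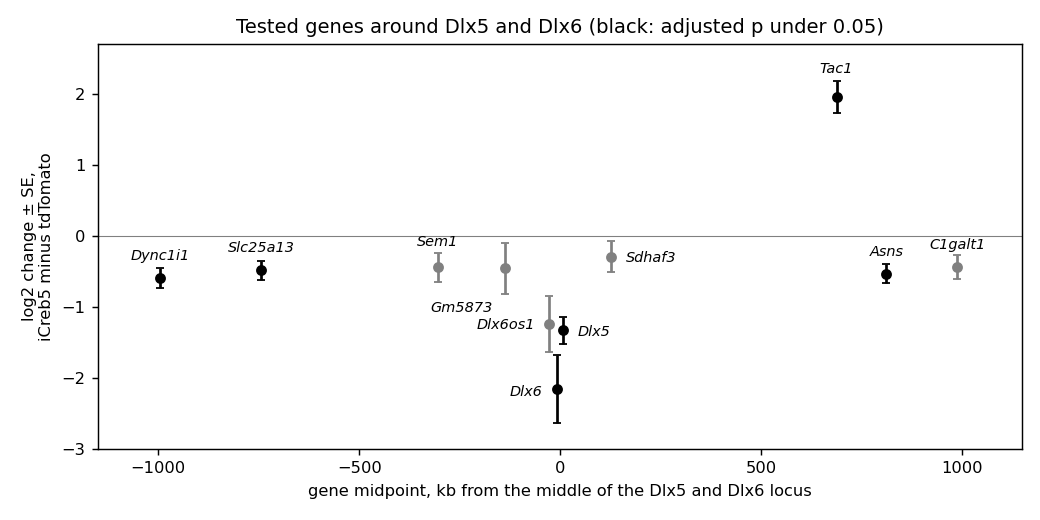
Log2 change, iCreb5 minus tdTomato, ± SE, of the tested genes within 1 Mb of Dlx5 and Dlx6 against the distance of the gene's midpoint from the middle of the locus in kb; black points have an adjusted p under 0.05. Dlx6 at -2.16 and Dlx5 at -1.33 are the lowest of the called genes, and Tac1 at 1.96 is the called gene above 0.

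*Dlx3* (ENSMUSG00000001510) lies on the plus strand at chr11:95120119-95125296 and *Dlx4* (ENSMUSG00000020871) on the minus strand at chr11:95140447-95146263, 15150 bases apart (mm10, GENCODE M21). *Dlx3* is known for its roles in skin, placenta, teeth and bone. *Dlx3* had 88.5, 128, 107, 163, 133 and 157 in iCreb5 3a, 3b, 3c, 4a, 5 and 6, against 276, 295, 351, 526, 421 and 275 in tdTomato 3a, 3b, 3c, 4a, 5b and 6d. The groups did not overlap, and in each litter every iCreb5 library lay below every tdTomato library. *Dlx3* averaged 129 ± 28.5 in iCreb5 and 357 ± 99.7 in tdTomato (SD, n = 6 each). It was 2.73-fold lower in iCreb5, a log2 change of -1.45 ± 0.20 (SE, 95% interval -1.88 to -1.01, limma adjusted p = 0.000289, exact two-sided permutation p = 0.00216, the smallest possible). With labels exchanged only within litters, the exact permutation p was 0.0125, also the smallest possible. The fall of *Dlx3* was -1.51 in litter 3 alone (adjusted p = 0.00795), and litters 4 to 6 with litter as a block gave -1.38 (adjusted p = 0.0167).

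*Dlx4* was near the lower limit of detection. *Dlx4* had 15.2, 5.74, 11.6, 9.70, 2.55 and 9.05 in iCreb5 3a, 3b, 3c, 4a, 5 and 6, against 8.38, 14.3, 17.8, 25.7, 9.13 and 12.1 in tdTomato 3a, 3b, 3c, 4a, 5b and 6d. The groups overlapped, with iCreb5 3a above 4 of the 6 tdTomato libraries. Its log2 change was -0.70 ± 0.45 (SE, 95% interval -1.66 to 0.26, limma adjusted p = 0.465), an interval that also holds the change measured for *Dlx3*. The log2 ratio of *Dlx3* to *Dlx4* was 3.83 ± 0.96 in iCreb5 and 4.58 ± 0.46 in tdTomato (SD, n = 6 each), a difference of -0.75 (exact two-sided permutation p = 0.113, adjusted p = 0.169). Without iCreb5 5, the library lowest in *Dlx4*, that difference was -1.03 (adjusted p = 0.0130). *Dlx4* shares 79 exon bases, 2.42% of its own, with *Dlx4os* on the other strand. Of 6 tested neighbours of *Dlx3* and *Dlx4*, *Itga3*, an integrin gene, was called higher (118 in iCreb5 and 43.0 in tdTomato, log2 change 1.60, adjusted p = 0.0352), and the call was lost without any 1 of iCreb5 3a, 3b, 3c, 4a or 6 or of tdTomato 3a, 3b or 6d.

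*Dlx1* (ENSMUSG00000041911, plus strand, chr2:71528113-71533981) and *Dlx2* (ENSMUSG00000023391, minus strand, chr2:71543408-71546754) are separated by 9426 bases (mm10, GENCODE M21). Both are known for their part in forebrain interneurons and the jaw. *Dlx2* did not pass the test, and *Dlx1* was too low to be tested. *Dlx2* had 12.6, 13.8, 60.2, 73.3, 59.4 and 78.1 in iCreb5 3a, 3b, 3c, 4a, 5 and 6, against 25.1, 48.4, 19.2, 107, 102 and 30.7 in tdTomato 3a, 3b, 3c, 4a, 5b and 6d. The groups spanned much the same range, and each held libraries several times apart. The log2 change of *Dlx2* was -0.18 ± 0.55 (SE, 95% interval -1.34 to 0.99, limma adjusted p = 0.915).

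*Dlx2* varied with Y-linked genes. Over the 12 libraries, with each group's mean taken off, the genes most like *Dlx2* among 12412 compared were *Kdm5d* (r = 0.96, rho = 0.90), *Eif2s3y* (r = 0.95) and *Uty* (r = 0.95), all on the Y chromosome. *Kdm5d* was at 0 in iCreb5 3a and 3b and in tdTomato 3a, 3c and 6d, and *Dlx2* lay between 12.6 and 30.7 in these libraries. *Kdm5d* ran from 260.4 to 543 in the other 7 libraries, in which *Dlx2* lay between 48.4 and 107. Those 7 were iCreb5 3c, 4a, 5 and 6 and tdTomato 3b, 4a and 5b, so the Y-linked genes were unevenly spread over the groups and litters. Their part in the group comparison of *Dlx2* was not tested.

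**Figure D3:**
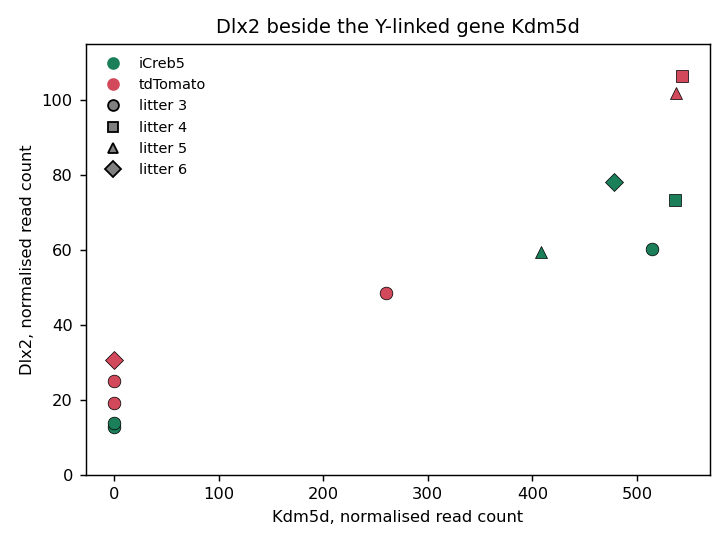
Normalised read count of Dlx2 against that of the Y-linked gene Kdm5d in the 12 libraries, with colour for the group and shape for the litter. The 5 libraries with Kdm5d at 0 have Dlx2 at 30.7 or less, and the other 7 have Dlx2 at 48.4 or more.

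*Dlx1* was at or near 0 in iCreb5 libraries. *Dlx1* had 0.843, 0, 0, 0, 0.849 and 4.93 in iCreb5 3a, 3b, 3c, 4a, 5 and 6, against 14, 2.47, 0, 5.51, 51.7 and 63.2 in tdTomato 3a, 3b, 3c, 4a, 5b and 6d. The iCreb5 values rest on 1, 0, 0, 0, 1 and 6 reads and the tdTomato values on 5, 5, 0, 6, 34 and 68 reads, so 2 tdTomato libraries hold most of the signal. A value of 3 reads corresponds to between 1.52 and 3.45 units in iCreb5 libraries and between 1.48 and 8.38 units in tdTomato libraries, which covers counting error only. With no filter on low values, the log2 change of *Dlx1* was -2.63 and did not pass (limma adjusted p = 0.173). *Dlx1as*, which shares 335 exon bases with *Dlx1*, was at most 2.15 in iCreb5 and 1.84 in tdTomato. None of 7 tested neighbours of *Dlx1* and *Dlx2* was called.

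*Msx1* (ENSMUSG00000048450) lies on the minus strand at chr5:37820485-37824583 and *Msx2* (ENSMUSG00000021469) on the minus strand at chr13:53466884-53473074 (mm10, GENCODE M21). *Msx1* had 1111, 1500.4, 825, 1513, 2321 and 1379.8 in iCreb5 3a, 3b, 3c, 4a, 5 and 6, against 1312, 2095, 2187, 1715, 3382 and 2274 in tdTomato 3a, 3b, 3c, 4a, 5b and 6d. The groups overlapped, and library 5 or 5b was the highest of each group. *Msx1* averaged 1442 ± 505 in iCreb5 and 2161 ± 697 in tdTomato (SD, n = 6 each), a log2 change of -0.60 ± 0.23 (SE, 95% interval -1.09 to -0.10) that did not pass (limma adjusted p = 0.171). With litter as a block the same change had an adjusted p of 0.0386, and without iCreb5 5 the change of *Msx1* was -0.75 (adjusted p = 0.0472).

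*Msx2*, which also acts in skull bones and skin appendages, had 207, 283, 241, 513, 498 and 394 in iCreb5 3a, 3b, 3c, 4a, 5 and 6, against 290.4, 324, 433, 432, 898 and 460.1 in tdTomato 3a, 3b, 3c, 4a, 5b and 6d. The groups overlapped, and tdTomato 5b stood above all other libraries. Its log2 change was -0.39 ± 0.28 (SE, 95% interval -0.98 to 0.20, limma adjusted p = 0.519). The log2 ratio of *Msx1* to *Msx2* was 2.03 ± 0.37 in iCreb5 and 2.23 ± 0.28 in tdTomato (SD, n = 6 each, exact two-sided permutation p = 0.301, adjusted p = 0.301). *Msx1* and *Msx2* had r = 0.76 (exact permutation p = 0.0639) and rho = 0.83 (exact permutation p = 0.0583) over 6 iCreb5 libraries. Over 6 tdTomato libraries r was 0.87 (exact permutation p = 0.0347, adjusted p = 0.108) and rho was 0.94 (exact permutation p = 0.0167, adjusted p = 0.10). Without the 2 libraries farthest from the median of *Msx1*, r was 0.76 in iCreb5 and 0.02 in tdTomato. Each of these rests on 4 libraries with a narrower range of *Msx1*, too few to describe the relation. Of 9 tested neighbours of *Msx1* and *Msx2*, 2 were called lower. *Cytl1*, a secreted protein gene expressed in cartilage, averaged 1598 in iCreb5 and 7014 in tdTomato (log2 change -2.10 ± 0.18 SE, adjusted p = 2.73e-06). *Sfxn1*, a mitochondrial carrier gene, averaged 2072 in iCreb5 and 2777 in tdTomato (log2 change -0.42, adjusted p = 0.0202), a call lost without iCreb5 3a.

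**Figure D4:**
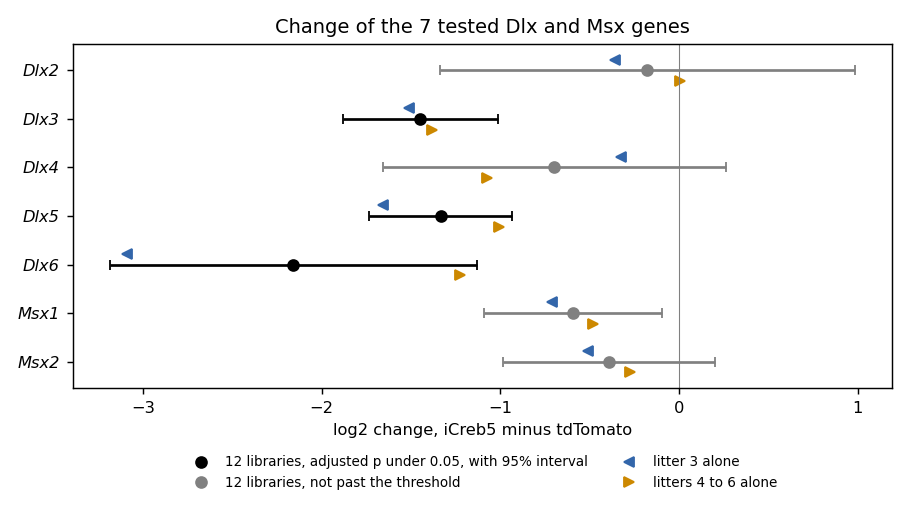
Log2 change, iCreb5 minus tdTomato, of the 7 tested Dlx and Msx genes, with the 95% interval over 12 libraries and the changes within litter 3 (left-pointing triangles) and within litters 4 to 6 (right-pointing triangles). The intervals of Dlx3, Dlx5 and Dlx6 end at -1.01, -0.93 and -1.13, and Dlx6 shows the widest gap between the litter sets, -3.09 and -1.23.

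The 8 genes spanned a wide range of levels. Per kilobase of exon, *Msx1* had the highest mean level in both groups, 465 ± 163 in iCreb5 and 698 ± 225 in tdTomato (normalised read count per kb, SD, n = 6 each). *Dlx5* followed with 141 ± 46.9 in iCreb5 and 344 ± 49.6 in tdTomato, then *Msx2* with 109 ± 40.3 in iCreb5 and 144 ± 66.7 in tdTomato. *Dlx5* and *Msx2* overlapped in range in both groups, with *Dlx5* the higher in 5 of 6 iCreb5 libraries and in 6 of 6 tdTomato libraries. *Dlx3* stood at 49.6 ± 11 in iCreb5 and 137 ± 38.2 in tdTomato per kb, where it overlapped *Msx2* in tdTomato only. *Msx2* had the higher mean there but lay above *Dlx3* in 2 of 6 tdTomato libraries, and tdTomato 5b was its highest. *Dlx2* came next with 17.4 ± 10.2 in iCreb5 and 19.4 ± 13.7 in tdTomato. *Dlx4*, *Dlx6* and *Dlx1* were lowest, and neighbours in that order overlapped, apart from *Dlx6* and *Dlx1* in iCreb5. *Dlx6* had 2.69 ± 2.20 in iCreb5 and 11.9 ± 4.98 in tdTomato per kb, and *Dlx4* had 2.74 ± 1.35 in iCreb5 and 4.46 ± 1.98 in tdTomato.

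Other genes also varied with single members between libraries of 1 group, measured as Pearson's r over the 12 libraries after each group's mean was taken off. Those most like *Dlx5* were *Hpgds* (r = 0.92), *Bhlhe40* (r = 0.89) and *Fcer1g* (r = 0.89). Those most like *Dlx3* were *Rasl11a* (r = 0.94), *Ifitm5* (r = 0.92) and *Wtip* (r = 0.90). For *Dlx6* they were *Nop58* (r = 0.88), *Klhl15* (r = 0.85) and *Mbip* (r = 0.85), and for *Dlx4* they were *Zfp553* (r = 0.93), *Gpsm1* (r = 0.92) and *Rffl* (r = 0.91). *Msx1* was most like *Rasl10a* (r = 0.96), *Dand5* (r = 0.93) and *Samsn1* (r = 0.91), and *Msx2* most like *Ramp1* (r = 0.90), *Zcchc10* (r = 0.90) and *Gamt* (r = 0.89). These are the highest of 12412 values each and share the libraries' depth and litter.

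Genes of BMP signalling, the pathway that induces *Msx* and *Dlx5* expression, were for the most part not called. The same held for all genes tested, of which 6.72% were called in either direction, so few calls are not particular to this pathway. Of 15 tested ligands, receptors and Smads, 1 was higher, 1 lower and 13 did not pass, with a median log2 change of 0.03. *Bmp5*, a ligand gene of perichondrium, fell to 411 in iCreb5, against 1319 in tdTomato (log2 change -1.66 ± 0.14 SE, adjusted p = 2.82e-06). *Smad1*, which carries the BMP signal, was called higher (3543 in iCreb5 and 2763 in tdTomato, log2 change 0.36, adjusted p = 0.0364), but with 1 library left out in turn the call was lost in 9 of 12 cases, all but those without iCreb5 5, tdTomato 3a or tdTomato 4a. Without tdTomato 3a, 2 of the list were higher. The most abundant members not past the test were *Bmpr1a* (log2 change 0.10) and *Smad4* (log2 change 0.07). Of 13 feedback and target genes, the BMP antagonist gene *Grem1* rose (892 in iCreb5 and 525 in tdTomato, log2 change 0.79 ± 0.18 SE, adjusted p = 0.0111) and 12 did not pass. *Id3* and *Id2*, direct BMP targets, had log2 changes of -0.08 and -0.06.

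Of 11 tested osteoblast genes, 9 were lower in iCreb5 and none higher, with a median log2 change of -1.38. *Dmp1*, a bone matrix gene, averaged 49.4 in iCreb5 and 415 in tdTomato (log2 change -3.43 ± 0.61 SE, adjusted p = 0.00201). *Spp1*, encoding osteopontin, averaged 879 in iCreb5 and 3575 in tdTomato (log2 change -2.17 ± 0.27 SE, adjusted p = 0.000109), and *Ifitm5*, a gene of mineralising osteoblasts, 191 in iCreb5 and 590.5 in tdTomato (log2 change -1.62 ± 0.32 SE, adjusted p = 0.00477). The bone matrix gene *Ibsp* had a log2 change of -2.06 (adjusted p = 0.0423), a call lost without any 1 of iCreb5 3a, 3b, 3c or 5 or tdTomato 3a, 3b, 3c or 4a. The osteoblast transcription factor genes *Sp7* and *Runx2*, named after their values were seen, had log2 changes of -1.38 ± 0.24 (adjusted p = 0.00178) and -1.01 ± 0.17 (adjusted p = 0.00119). *Col1a1*, the most abundant, had a log2 change of 0.00, and *Phex* -0.32, and neither passed. *Bglap*, *Bglap2* and *Mepe* were below the filter.

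Digit and distal limb regulators gave 3 higher and 1 lower of 17 tested, with a median log2 change of 0.40, and 2 were lower without iCreb5 3a, iCreb5 5, tdTomato 3a or tdTomato 3b. *Sall3*, a zinc finger gene of the distal limb, averaged 145 in iCreb5 and 20.9 in tdTomato (log2 change 2.71 ± 0.29 SE, adjusted p = 3.01e-05). *Hand2*, which acts in the posterior limb bud, rose by 0.89 ± 0.19 (SE, adjusted p = 0.00787), and *Lhx9*, a LIM homeobox gene, fell to 172 in iCreb5, against 384 in tdTomato (log2 change -1.17 ± 0.17 SE, adjusted p = 0.000397). *Hoxd13*, a digit patterning gene, had a log2 change of 0.60 (adjusted p = 0.0319), a call lost without iCreb5 3a, 3b, 5 or 6 or tdTomato 3a, 3b, 4a or 6d. *Gli3* (0.50) and *Tbx2* (-0.08) did not pass.

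**Figure D5:**
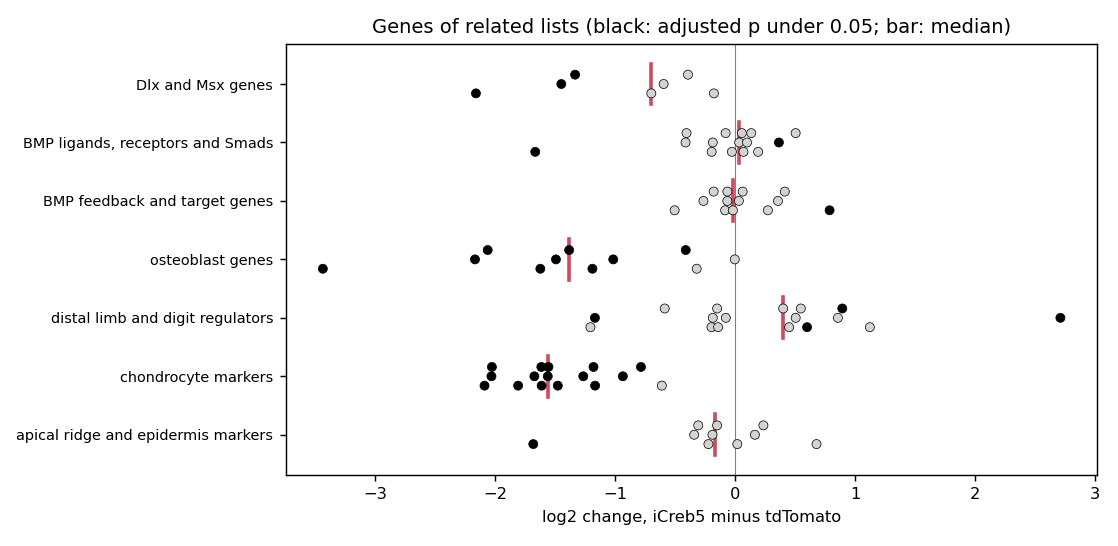
Log2 change, iCreb5 minus tdTomato, of each tested gene of 7 lists, 1 point a gene, black where the adjusted p is under 0.05, with a bar at the median of each list. The medians of the osteoblast and chondrocyte lists lie at -1.38 and -1.56, that of the Dlx and Msx genes at -0.70, and those of the BMP lists at 0.03 and -0.02.

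Markers of other cells differed between the groups too. In bulk RNA, fewer cells of a type and less RNA per cell cannot be told apart. Chondrocyte markers, in a tissue where *Dlx5* is also expressed, were lower in 15 of 16, with a summed level of 107947 to 149545 in iCreb5 and 217167 to 468720 in tdTomato. Hypertrophic chondrocyte markers were lower in 7 of 10 and higher in 1, the transporter gene *Slc26a7* (log2 change 1.90, adjusted p = 0.000156), with sums of 14838 to 27627 in iCreb5 and 22740.0 to 57216 in tdTomato. This list shares genes with the osteoblast list, *Spp1* and *Ibsp* among them, so the counts of these lists are not independent. Apical ridge and epidermis markers, of a tissue where *Dlx3*, *Dlx5* and *Dlx6* are active, summed to 410.3 to 1259 in iCreb5 and 600.4 to 1158 in tdTomato, and 1 of 10 tested was lower. That gene was the ridge signal *Fgf8*, at 6.93 in iCreb5 and 27.4 in tdTomato (log2 change -1.68 ± 0.41 SE, adjusted p = 0.0192). *Fgf8* was weakly expressed and passed the filter on low values through its tdTomato libraries, so its call is a description. *Fgf4*, *Wnt7a* and *Esrp1* were below the filter, while *Epcam* (-0.31) and *Perp* (-0.19) did not pass.

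Leukocyte markers were higher in 13 of 13, with sums of 2612 to 11785 in iCreb5 and 642 to 1187 in tdTomato. Endothelial markers were higher in 5 of 9 (*Pecam1*, *Cdh5*, *Kdr*, *Tek* and *Tie1*), with sums of 2006 to 4585 in iCreb5 and 1475 to 2052 in tdTomato, and the count was 2 or 3 when any 1 library other than iCreb5 5 or tdTomato 5b was left out. Neuron markers were higher in 3 of 10 and lower in 1, with sums of 7073 to 11399 in iCreb5 and 1605 to 2390.5 in tdTomato. The neuron list moved through *Isl1*, *Nefl* and *Nefm*, higher by 2.69, 2.65 and 2.65 on the log2 scale, while *Stmn2* fell by 1.65, and the interneuron gene *Gad1* was below the filter. Skeletal muscle markers gave no call in 9 tested, with sums of 1193 to 3084 in iCreb5 and 1259 to 2568 in tdTomato. Schwann cell and melanoblast markers were lower in 1 of 9, *Sox10*, or in 2 without iCreb5 3b, with sums of 343 to 517 in iCreb5 and 550.5 to 689 in tdTomato. Markers of limb mesenchyme, the labelled tissue, were present in both groups, with sums of 230818 to 475858 in iCreb5 and 251239 to 435139 in tdTomato. Most of these sums came from the collagen genes *Col3a1* and *Col1a2*. *Col3a1* averaged 221559 in iCreb5 and 192215 in tdTomato, and *Col1a2* 96542 in iCreb5 and 121742 in tdTomato. The transcription factor gene *Prrx1* averaged 4158 in iCreb5 and 4986 in tdTomato, so the sums say little about such genes. Of the 12 genes listed for limb mesenchyme 1 was higher, the hindlimb gene *Tbx4* (0.54, adjusted p = 0.0330). Its call was lost without iCreb5 3a, 3b, 3c or 4a or tdTomato 4a, 5b or 6d. Without iCreb5 5 *Msx1*, also of this list, was called lower. No listed marker was at 0 in all 12 libraries. The part of these cell types in the changes of the *Dlx* and *Msx* genes was not tested.

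With M for 1000000, iCreb5 libraries held 21.6 to 49.2 M recovered reads and tdTomato libraries 9.02 to 53.3 M, and tdTomato 3a was the shallowest. *Creb5* itself averaged 2799 ± 214 in iCreb5 and 1803 ± 299 in tdTomato (SD, n = 6 each, log2 change 0.65 ± 0.12 SE, adjusted p = 0.00219), and the sources used here do not say if these counts include reads from the bovine transgene.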

How the data were processed

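PolyA RNA of fluorescence-sorted cells was made into libraries with Nextera XT, per the labels' protocols, and sequenced and processed by the authors. The submitters' processing notes list FastQC, STAR, Salmon, DESeq2 and mm10, with neither roles nor versions. The values of the deposited E14.5 table are a normalised signal per gene. Each library's deposited values were whole multiples of a unit of its own, as gene counts over a size factor would be, and division by it returned whole reads for 100% of them (tolerance 1e-06). The deposited P0 table was left out, because its 8 columns could be tied to no labelled sample. Of the gene IDs, 123 lacked a symbol. Coordinates, exon lengths and coding sequences came from GENCODE M21 (GRCm38, the assembly of mm10).

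For the test, limma 3.58.1 under R 4.3.3 was fitted to log2(value + 1) with group as the only term (two-sided, moderated with a trend). It covered the 16733 genes that reached 10 in 6 or more of the 12 libraries, and adjusted p (Benjamini-Hochberg) under 0.05 was a call. The plan had a branch for whole-number counts, which was not needed. A fold change is on the log2(value + 1) scale and understates that of weakly expressed genes. edgeR 4.0.16 (quasi-likelihood) and DESeq2 1.42.0 on the recovered reads were alternatives, with 641 higher and 471 lower genes by edgeR and 922 higher and 715 lower by DESeq2, against 648 and 477. Pair ratios and single genes were tested by exact permutation with SciPy 1.17.1. The script was tested on simulated data. The litter of each library, read from its name, pairs the groups. The iCreb5 and tdTomato deviations from the group means correlated at 0.13 in litter 3, 0.15 in litter 4, 0.35 in litter 5 and 0.00 in litter 6. Alternatives were other pseudocounts, filters and scalings, litter as a block, litter subsets, and each library left out in turn.

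All members are named, and from other lists up to 4 called genes with the largest change, the 2 most abundant genes not called, and those behind a count of 5 or fewer; the 3 genes most like each tested member had a mean of at least 50. Members, lists and this rule were chosen with earlier results of these data known. Of the listed noncoding RNA genes, *Msx1as* was not matched to an ID and is not analysed here. The results of 1 gene list and of 1 neuron marker are not reported here.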

Additional observations from a re-analysis of the deposited data

Results flagged for a closer look

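Each of the 8 genes was examined in each group for a library that stood apart, by Dixon's test at its 95% critical value for 6 libraries. Of these 16 sets, 2 gave such a library, and chance alone gives about 5% of them. *Msx2* in tdTomato 5b had a normalised read count of 898, with 460.1 as the next highest tdTomato library, a gap of 0.721 of the group's range. *Dlx1* in iCreb5 6 had 4.93, with 0.849 as the next highest iCreb5 library, a gap of 0.828 of the range that amounts to 6 reads against 1.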

How the results depend on the processing

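Over 30 other settings the log2 change of *Dlx3* ran from -1.54 to -1.33 and that of *Dlx5* from -1.66 to -1.01, and each was called in 29. Over the 29 settings that tested it, *Dlx6* ran from -3.09 to -1.22 and was called in 25. In litters 4 to 6 with no replicate block, *Dlx3* was -1.38 (adjusted p = 0.0692), *Dlx5* -1.01 (0.166) and *Dlx6* -1.23 (0.555), so 0 members were called lower, and 84 genes were higher and 57 lower. With the block, litters 4 to 6 gave 320 genes higher and 368 lower and *Dlx6* at -1.23 (0.360). Litter 3 alone gave 395 higher and 292 lower. With litter as a replicate block over all libraries, 859 genes were higher and 728 lower and *Msx1* was called (-0.60, 0.0386), also in edgeR with the block (-0.59, 0.0384), a setting chosen after seeing the data, and with litter 3 averaged (-0.54, 0.0337). That last setting took *Dlx6* to -1.69 (0.141), and leaving out tdTomato 3a and 5b to -1.84 (0.0661). With log2(value + 10), the ratio of *Dlx3* to *Dlx4* differed by -1.02 (0.00649). *Dlx4* averaged only 8.97 in iCreb5 and 14.6 in tdTomato, so adding 10 shrinks its change more than that of *Dlx3*. This setting therefore does not show an unequal fall. With 1 library left out, that ratio ran from -1.03 to -0.48, *Msx1* from -0.75 to -0.45, members called lower from 3 to 4, *Dlx6* from -2.45 to -1.98 (adjusted p 0.00461 to 0.0287), and genes called from 484 to 705 higher and from 369 to 511 lower. Over all libraries and without averaging litter 3, the block changed no other member's call. In litters 4 to 6 the block brought *Dlx3* (0.0167) and *Dlx5* (0.0146) past the threshold. *Dlx2*, *Dlx4* and *Msx2* were called in no setting. No called change reversed sign, and *Dlx2*, uncalled, had a negative change in 24 of 30 settings. Equal library totals moved the median of all genes by 0.07 and gave 799 genes higher and 382 lower. The causes were not tested. Depth limits *Dlx1*, *Dlx4* and *Dlx6*, whose values rest on few reads.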
